A study of Mus musculus with 4 samples.

Results

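The mitochondrial ribosomal protein genes encode the proteins of the mitoribosome, the ribosome inside mitochondria. They are nuclear genes, named Mrpl when the protein was assigned to the large subunit and Mrps when it was assigned to the small subunit. Genes were taken as members when their symbol in the deposited liver RNA-Seq results began with Mrpl or Mrps followed by a digit, and 48 of the 7000 listed genes met this rule, 30 Mrpl and 18 Mrps. The RNA came from the livers of male FVB/N wild-type mice that were weaned onto a Se-deficient diet, supplemented with sodium selenite at 0 ppm Se ("0 Se", 2 mice) or 0.1 ppm Se ("0.1 Se", 2 mice), and kept on it for 6 weeks. The results hold 1 mean level for each gene over the 4 libraries and no value for a single mouse. The spread between mice and the depth of each library were therefore not analysed here. The level of the members in each diet was not analysed either, because the authors' own comparison of the diets was not used. The levels below therefore describe livers of both diets together, as the authors' mean, and no p-value is given for differences between genes.

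The mitoribosome translates the few mRNAs of the mitochondrial genome, all of which encode core subunits of the respiratory chain and the ATP synthase. Its proteins are made in the cytosol and imported, and they assemble on ribosomal RNAs that are transcribed in the mitochondrion. Some of its proteins descend from bacterial ribosomal proteins and others were added during the evolution of mitochondria. Hepatocytes are rich in mitochondria.

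The genes are spread over the genome, and their promoters are described first. All 48 genes were found by symbol in GENCODE vM1, an annotation of NCBIM37 (the assembly of mm9), on 16 chromosomes, with 6 on chromosome 17 and 5 on chromosome 7. Promoters of 42 of them were available from RefSeq on GRCm38.p6, each 300 bases long, from 250 bases before the annotated start to 50 after it. Exact matches on either strand were counted for 6 motifs, each gene once. They were CCGGAAG, the core bound by ETS factors such as GABP, GCATGCG, a part of the NRF-1 site, AGATGGC, a part of the YY1 site, GGGCGG, the GC box, CCAAT and TATAAA. None of these contains another, but GCATGCG overlaps its own reverse complement.

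Of the 42 promoters, 18 held the ETS core, which is 42.9% (95% exact binomial interval 27.7 to 59.0, which covers counting error only). Among the 5184 other listed genes with a promoter the share was 19.7%, among the 17491 protein-coding genes of the promoter set it was 12.9%, and among all its 27025 genes, non-coding ones included, it was 9.93%. The groups most like the members also held it often, with 36.4% (23.8 to 50.4) of cytosolic ribosomal protein genes and 28.0% (16.2 to 42.5) of respiratory chain genes, and both intervals overlapped that of the members. The YY1 letters were in 8 of the 42, or 19.0% (8.60 to 34.1), against 7.85% of the other listed genes. The NRF-1 letters were in 5, or 11.9% (3.98 to 25.6), against 7.29%, and in 24.0% (13.1 to 38.2) of respiratory chain genes. The GC box was in 22, or 52.4% (36.4 to 68.0), against 67.7%. CCAAT was in 20 (47.6%, against 43.8%) and TATAAA in 4 (9.52%, against 9.03%). From 150 bases before the start, TATAAA was in 1 promoter (2.38%, against 5.36%). The intervals of the ETS core and of the YY1 letters lay above the share in the other listed genes. From 150 bases before the start this no longer held for YY1, at 14.3% (5.43 to 28.5) against 5.98%. The intervals of NRF-1, the GC box, CCAAT and TATAAA included it, that of the GC box near its upper end. The 6 intervals were not adjusted for their number. At least 1 of the ETS, NRF-1 and YY1 motifs was in 24 of the 42 promoters (57.1%), against 30.8% of those of the other listed genes. These 24 include the 18 with the ETS core, so this is no separate result. The combined share was not counted for the cytosolic ribosomal protein and respiratory chain genes. A match describes the letters of these windows and is no measurement of binding.

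**Figure D1:**
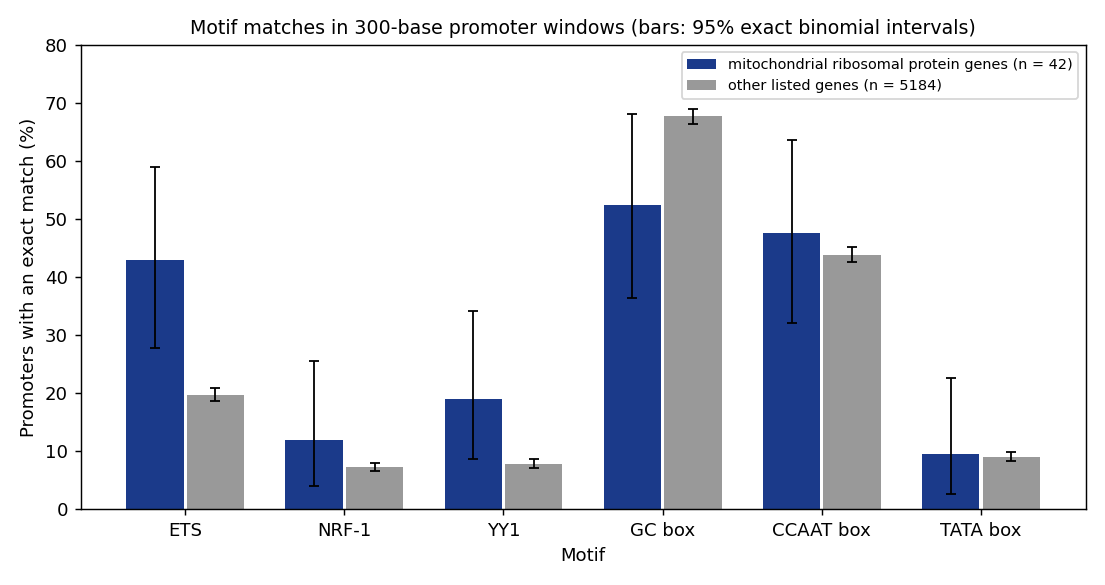
Share of promoter windows (percent, vertical axis) with an exact match to each motif (horizontal axis), for mitochondrial ribosomal protein genes (blue) and other listed genes (grey), with 95% exact binomial intervals. The ETS core was in 42.9% of the 42 blue promoters and in 19.7% of the grey ones.

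Of the 21 ETS matches, 17 (81.0%) were centred within 60 bases of the annotated start, in 15 genes. Among the other listed genes, 853 of 1337 matches (63.8%) were as close, so nearness to the start was common there too, and the difference was not tested. The matches nearest to the start are shown for the genes with an ETS core among the 10 members with the highest level per kilobase, and for Mrps12, with the motif letters in capitals and the sequence read in the direction of the gene. They lie at chr3:95871478-95871507 (Mrps21, minus strand), chr14:54426900-54426929 (Mrpl52, plus), chr17:12916312-12916341 (Mrpl18, minus), chr14:20393448-20393477 (Mrps16, minus), chr17:35916391-35916420 (Mrps18b, minus), chr6:83109081-83109110 (Mrpl53, plus) and chr7:28741802-28741831 (Mrps12, minus) of GRCm38.p6. In Mrps18b a match to GCATGCG lies in the same 30 bases. The match of Mrpl18 lies farther out, with its centre at position -237.

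Mrps21: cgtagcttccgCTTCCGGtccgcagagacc
Mrpl52: ggccacgcccaCTTCCGGttcccttgctcc
Mrpl18: actgaaaacgCCGGAAGtagggggctgcgg
Mrps16: agtgcgcggggCTTCCGGgcgggcgtgggc
Mrps18b: tgtcccgaGCATGCGcagtcgctCTTCCGG
Mrpl53: cagtgctactcCTTCCGGggtggaggtaac
Mrps12: aaggaggaaccCCGGAAGgggctggaggta

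Mrpl22 held the ETS core and the NRF-1 letters side by side upstream of its start, at chr11:58171599-58171653 (plus strand, GRCm38.p6), and Mrpl32 held the NRF-1 letters at 3 places, at chr13:14613043-14613132 (minus strand). Capitals again mark the matches.

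Mrpl22: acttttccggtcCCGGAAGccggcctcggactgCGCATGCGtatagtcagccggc
Mrpl32: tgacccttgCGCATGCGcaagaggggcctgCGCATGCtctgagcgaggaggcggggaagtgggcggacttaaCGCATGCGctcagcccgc

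Many of the genes start beside another gene on the opposite strand. In GENCODE vM1, 17 of the 48 (35.4%) had the start of a protein-coding gene on the other strand within 1000 bases, against 15.2% of the 6722 other listed genes found there and 10.8% of all 22380 protein-coding genes. Mrps11 and Mrpl46 are both among the 17, each as the neighbour of the other. The share was not counted for the cytosolic ribosomal protein and respiratory chain genes, and the difference was not tested. Mrps12, whose bacterial counterpart is a protein of the decoding centre, starts 171 bases from Sars2, the mitochondrial seryl-tRNA synthetase. Mrps27, a pentatricopeptide repeat protein, starts 108 bases from Ptcd2, another gene of that family. Mrpl32 starts 217 bases from Psma2, a proteasome subunit, Mrps18b 45 bases from Ppp1r10, Mrpl30 66 bases from Mitd1, Mrpl50 83 bases from Zfp189 and Mrpl40 270 bases from Hira. For 7 of the 17, among them Mrpl18 with Tcp1, Mrpl13 with Mtbp and Mrpl27 with Eme1, the annotated genes overlap at their starts.

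Mrps11 and Mrpl46 are both members and start against each other on chromosome 7. In RefSeq on GRCm38.p6 they are 41 bases apart, and this gap, at chr7:78783090-78783130, is shown in the direction of Mrps11 with its GC box in capitals.

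Mrps11: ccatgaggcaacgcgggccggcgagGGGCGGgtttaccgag

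In GENCODE vM1 the longest forms of the pair overlap, with Mrpl46 from 85920122 to 85928417 and Mrps11 from 85928005 to 85937875 of chromosome 7 of NCBIM37. Their mean levels were close. Mrps11 was at 17.1 CPM on an mRNA of 1043 bases, or 16.4 CPM per kilobase, and Mrpl46 was at 19.6 CPM on 1029 bases, or 19.1 CPM per kilobase. Whether this differs from the spread between mice could not be tested.

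In liver, the mRNAs of the mitoribosome were of middling and rather even abundance. Their median level was 24.4 CPM (read counts scaled to a common library size), with a middle 50% of 19.4 to 36.1 CPM. In whole tissue, fewer cells of a type and less mRNA per cell cannot be told apart. Longer mRNAs give more reads at the same number of molecules, so levels were compared per kilobase of the listed mRNA. On that scale the median was 24.96 CPM per kilobase, with a middle 50% of 15.7 to 34.8. Per kilobase of the longest annotated coding sequence the median was 43.8. The mean levels of all 48 mRNAs added up to 1358 CPM.

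**Figure D2:**
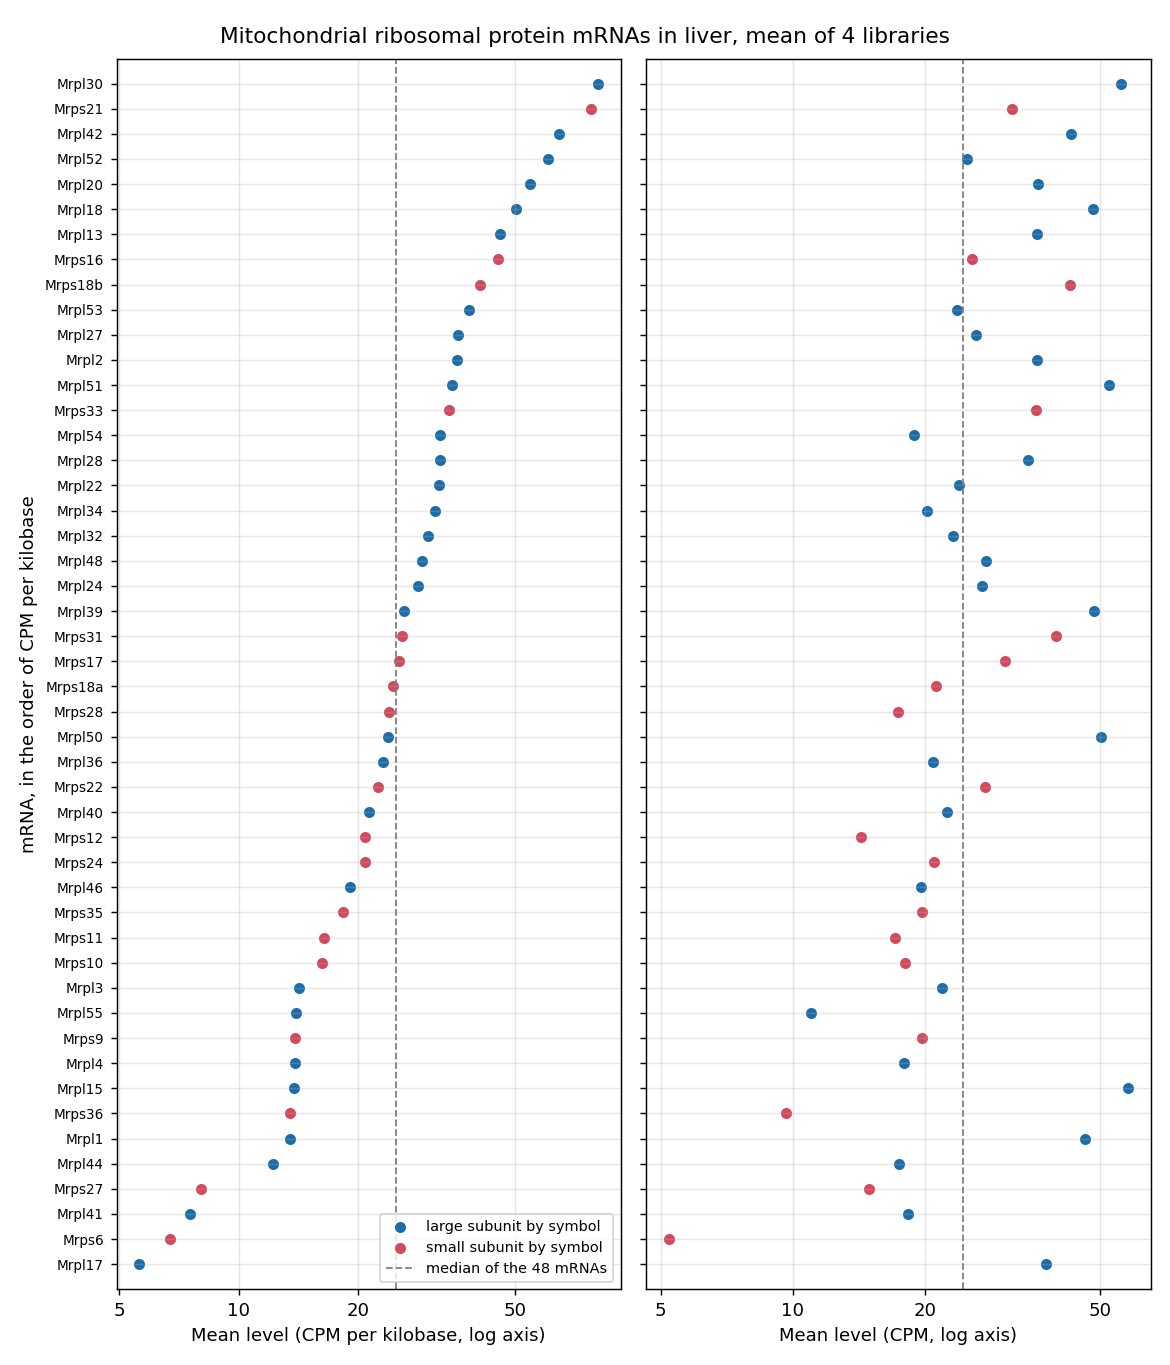
Mean level of each of the 48 mitochondrial ribosomal protein mRNAs over the 4 libraries, in CPM per kilobase (left, log axis) and in CPM (right, log axis), each point 1 mRNA in the order of the left panel (blue, large subunit by symbol, and red, small subunit), with dashed medians of 24.96 and 24.4. No error is drawn because the values are the authors' means. Mrpl17 is lowest on the left, at 5.62, and above the median on the right, at 37.7.

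The highest per-length level was that of Mrpl30, which lies on chromosome 1 of NCBIM37 from 37947322 to 37955380 and was at 55.8 CPM, or 80.7 CPM per kilobase. Mrps21, on chromosome 3 from 95666557 to 95675442, followed at 77.6 CPM per kilobase and has the shortest listed mRNA, 407 bases. Mrpl42, on chromosome 10, was at 64.6 CPM per kilobase, and Mrpl52, on chromosome 14, at 60.3. Mrpl30 and Mrps21 have bacterial counterparts, and Mrpl42 and Mrpl52 do not. The other 6 of the 10 highest were Mrpl20 (54.5 CPM per kilobase), Mrpl18 (50.1), Mrpl13 (45.7), Mrps16 (45.3), Mrps18b (40.6) and Mrpl53 (38.1). Among these 10, 7 belong to the large and 3 to the small subunit by symbol, against 30 and 18 of all 48 members. Their listed mRNAs are short, from 407 to 1053 bases, so a high rank per kilobase need not be a high level for the length. Among other listed mRNAs within 10% of their own length, Mrps16 stood above 39.2% and Mrpl53 above 41.6%. Mrpl52 also stood below the midpoint of its neighbours in length. The rest of the 10 stood above it, from Mrps21 (54.5%) to Mrpl18 (71.9%).

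At the other end, Mrpl17 was at 5.62 CPM per kilobase and Mrps6 at 6.71. Mrpl41 was at 7.56 and Mrps27 at 8.05. The 28 members between these ends lay from 14.05 to 35.8 CPM per kilobase, and Mrps17 (25.4), Mrps18a (24.5) and Mrps28 (24.0) were among those nearest to the median. The other 6 of the 10 lowest were Mrpl44 (12.2 CPM per kilobase), which has the fold of a ribonuclease, Mrpl1 (13.5), the protein of the mobile L1 stalk, Mrps36 (13.5), Mrpl15 (13.8), Mrps9 (13.9) and Mrpl4 (13.9), which lines the exit tunnel of the nascent chain. From Mrpl30 to Mrpl17 the levels spanned 14.4-fold. Mrps36 is listed by its symbol only, since its product is now known as an adaptor of the oxoglutarate dehydrogenase complex and is absent from structures of the mitoribosome.

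The order at the low end rested in part on the length listed for the mRNA. The authors aligned reads to the longest RefSeq isoform of each gene, and for 6 of the 48 genes the longest annotated coding sequence makes up less than 30% of that length. Mrpl17 is listed with 6712 bases, the longest of all, of which 531 bases (7.91%) are coding, and the nearest transcript in GENCODE vM1 has 3848 bases. Mrpl41 is listed with 2423 bases, of which 16.8% are coding, and its nearest transcript in GENCODE vM1 has 776 bases. Mrpl15 is listed with 4203 bases (21.1% coding), Mrpl50 with 2103 (22.8%), Mrpl51 with 1515 (25.5%) and Mrpl1 with 3431 (29.5%). Divided by coding length instead, the level of Mrpl17 was 71.1 CPM per kilobase, 11th of the 48, and that of Mrpl15 was 65.1, 16th. Mrpl1 was then at 45.8, 22nd, and Mrpl41 at 44.9, 23rd. Mrpl51 became the highest at 135 CPM per coding kilobase, followed by Mrps21 (120), Mrpl30 (116), Mrps33 (111) and Mrpl50 (105). Where shorter isoforms are expressed, division by the longest one understates a level, and which isoforms these livers expressed was not tested.

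Mrps6, whose bacterial counterpart is a protein of the small subunit, was low on either scale. It was at 5.23 CPM and 13.8 CPM per coding kilobase, 47th of the 48, just above Mrps27 at 11.9. Mrps6 lies on chromosome 16 of NCBIM37 from 92058515 to 92112472 and overlaps the gene Slc5a3, an inositol transporter. Reads that align equally well to the mRNAs of both genes were not counted by the authors, and what part this has in the low level of Mrps6 was not tested. Overlap with another protein-coding gene is annotated for 12 of the 48 members. The share among the other listed genes was not counted, so whether 12 is many was not tested. Libraries were stranded, but whether the authors used strand in the alignment is not given in the sources used here.

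Among the members, longer mRNAs had lower per-length levels (Spearman's rho -0.61 over 48 genes), and the rho of length with CPM was 0.20. The same coefficients for the 6952 other listed genes were -0.38 and 0.02. These are descriptions across genes that share the same 4 libraries, and the per-length level contains the length itself.

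**Figure D3:**
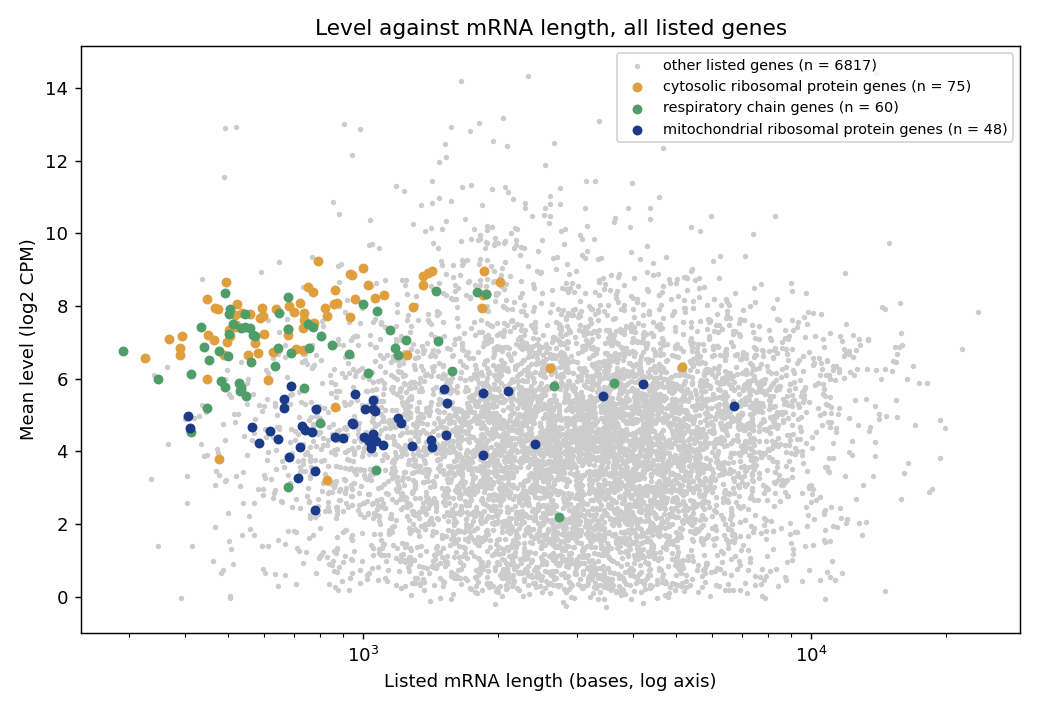
Mean level (log2 CPM, vertical axis) against listed mRNA length (bases, log axis) for all listed genes, with mitochondrial ribosomal protein (blue), cytosolic ribosomal protein (orange) and respiratory chain (green) genes in colour. The blue points have a median length of 1009.5 bases, and Mrpl17 is the farthest right at 6712 bases.

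The level of each member was set beside other listed mRNAs whose length was within 10% of its own, from 22 mRNAs for Mrps21 to 838 for Mrpl1. The median percentile of the members was 55.7, and 37 of the 48 stood above the midpoint of their neighbours in length. Mrpl15 was highest in this ranking, at 57.8 CPM and above 81.9% of its neighbours. Mrpl51 (75.9%), Mrpl1 (75.3%) and Mrpl50 (74.9%) followed. The lowest were Mrps6, above 17.4% of its neighbours, Mrps36 (23.8%) and Mrpl54 (32.5%).

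The spread was narrow. The SD of the log2 level per kilobase was 0.88 among the members and 2.30 among the 702 other listed mRNAs with a length in the members' middle 50%. Of the members, 77.1% (37 of 48) lay within 2-fold of their own median per kilobase, against 33.9% of those 702 mRNAs. The share was 84.0% for 75 cytosolic ribosomal protein genes and 63.3% for 60 genes of the respiratory chain and ATP synthase. The order of the members and the cytosolic set depended on the measure, since in CPM the shares were 85.4% and 70.7%, and the SD per kilobase was 0.88 for the members and 1.12 for the cytosolic set. The cytosolic set also includes Rpl7l1 and Rpl22l1, at 4.90 and 4.86 log2 CPM per kilobase against a median of 8.21 for that set. Their part in its SD was not tested. The difference in spread between the groups was not tested, since genes are not replicates.

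In level the medians of the groups stood apart, while single genes overlapped. The lowest mRNA was at 1.69 CPM per kilobase in the respiratory chain set, 11.2 in the cytosolic set and 5.62 among the members. The middle 50% of the cytosolic set (211 to 371) and of the respiratory chain set (95.6 to 258) also overlapped. The cytosolic ribosomal protein mRNAs had a median of 295 CPM per kilobase, 11.8 times that of the members, and the respiratory chain mRNAs one of 169, 6.76 times that of the members. Of the cytosolic set, 69 of 75 mRNAs were above Mrpl30, the highest member per kilobase, and of the respiratory chain set, 50 of 60 were. The respiratory chain genes are those whose proteins join the products of the mitoribosome, and the symbol rule for them also takes in 4 assembly factors, such as Ndufaf2. The authors kept uniquely aligned reads, so mRNAs with near-identical copies, as many cytosolic ribosomal proteins have, may be undercounted.

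**Figure D4:**
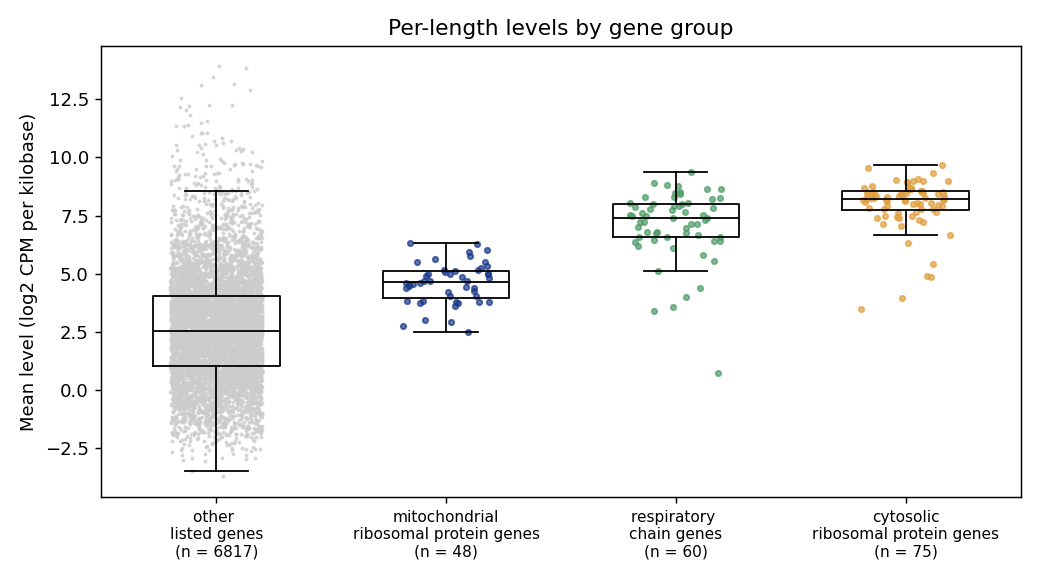
Mean level (log2 CPM per kilobase, vertical axis) of each listed gene by group, points for genes, boxes for the middle 50% with the median as a line, whiskers to the farthest gene within 1.5 box lengths. The median was 4.64 for mitochondrial ribosomal protein genes, 7.40 for respiratory chain genes and 8.21 for cytosolic ribosomal protein genes.

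Between the subunits, the median of the large-subunit mRNAs was the higher. The median was 29.6 CPM per kilobase for the 30 Mrpl genes and 21.7 for the 18 Mrps genes, a difference of 0.45 on the log2 scale. The levels ranged from 5.62 to 80.7 in the large and from 6.71 to 77.6 in the small subunit, so single genes overlapped, and the difference of the medians was not tested. Mrps18a, although named for the small subunit, is placed in the large one by structures of the mammalian mitoribosome, and moving it changed the difference to 0.47. Mrps18a and Mrps18b, relatives that carry the same number, were at 24.5 and 40.6 CPM per kilobase.

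Proteins inherited from bacteria and proteins added in mitochondria overlapped in mRNA level. The classes follow the present nomenclature of mitoribosomal proteins, which counts Mrps18a and Mrps18b, relatives of a bacterial protein, among the mitochondrial ones. The 27 listed members with a bacterial counterpart had a median of 25.4 CPM per kilobase and the 20 without one 25.2, a difference of 0.01 on the log2 scale that was not tested. The levels ranged from 5.62 to 80.7 and from 7.56 to 64.6. In the first set, Mrpl2, which lies next to the peptidyl transferase centre in bacteria, was at 35.6 CPM per kilobase, Mrpl27, whose counterpart reaches into it, at 35.8, Mrpl22, at the exit tunnel, at 32.1, and Mrps12 at 20.9. In the second, Mrpl39, which resembles part of a tRNA synthetase, was at 26.1, Mrps22 at 22.5, Mrps31 at 25.9 and Mrps35 at 18.4.

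The members had a median of 4 exons, from 2 to 11, and a median coding sequence of 552 bases, from 264 in Mrps21 to 1248 in Mrps27. Coding sequence made up a median of 66.0% of the listed mRNA.

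Of the 41 other genes of mitochondrial translation, transcription and ribosome assembly that were looked for, 26 are listed. Tufm, the elongation factor that brings aminoacyl-tRNA to the mitoribosome, was at 82.5 CPM, or 46.4 CPM per kilobase, and its exchange factor Tsfm at 9.37 CPM per kilobase. Factors of initiation (Mtif3, 5.55), release (Mtrf1, 5.48, and Mtrf1l, 2.36) and recycling (Mrrf, 11.2) were each under the median of the members per kilobase. Their listed mRNAs are longer than most members, and among mRNAs of similar length Mtif3 stood above 62.2% and Mrrf above 61.3%, while Mtrf1 stood above 35.4% and Mtrf1l above 27.7%. The mitochondrial RNA polymerase Polrmt was at 3.72 and its elongation factor Tefm at 8.24. The assembly factors Eral1, Nsun4, Ddx28 and Dhx30 lay between 5.63 and 7.62 CPM per kilobase. Among mRNAs of similar length they stood above 40.8%, 55.6%, 40.2% and 67.1%, in that order. Slirp, a small RNA-binding protein that protects mitochondrial mRNAs, was at 72.5. Its listed mRNA has 419 bases, and among mRNAs of similar length it stood above 40.0%. Mitoribosomal proteins with symbols of another form were also listed. Among them, in CPM per kilobase, were Chchd1 (57.5), Aurkaip1 (42.0), Ict1 (25.2), Gadd45gip1 (12.1), Mrp63 (8.51) and Dap3 (6.39). In that order, they stood above 47.6%, 74.1%, 45.5%, 55.1%, 55.3% and 62.8% of mRNAs of similar length.

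RefSeq holds 78 protein-coding mouse genes that meet the naming rule, and 30 of them are not in the listed results under those symbols, among them Mrpl9, Mrpl12, Mrpl45, Mrps2, Mrps5, Mrps7, Mrps18c and Mrps34. Mrpl57 and Mrpl58 are among the 30 but are listed as Mrp63 and Ict1. The results are ordered by the p-value of the authors' comparison, so which members are listed may depend on that comparison, whose part was not tested, and the 48 are not all members of the family. Of 7 hepatocyte markers, 4 are listed and were high, with Apob at 21876 CPM, Apoa1 at 7504 and Cyp2e1 at 7257, while Alb, Ttr and Cps1 are not in the listed results. The listed markers of other cell types lay between 10.2 and 185 CPM, with Clec4f of Kupffer cells at 180, Dcn of stellate cells at 185 and Stab2 of sinusoidal endothelium at 133.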

How the data were processed

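Liver RNA of 2 mice on each diet was depleted of ribosomal RNA, made into stranded libraries and sequenced for 50 cycles by the authors. Alignment was by Bowtie against the longest RefSeq isoform of each mRNA of mm9. The authors kept unique alignments with up to 2 mismatches, and ran edgeR on genes above 1 CPM in at least 3 samples. The log2 mean CPM over the 4 libraries was made by the authors with edgeR and deposited with the mRNA length, and both were used as deposited. The authors describe these CPM as normalized, and for the normalization method and tool versions nothing further was found in the sources used. The deposited results also hold log2 fold changes, p-values and FDR of the authors' comparison of the diets, which were not used. Since values of single mice are not among them, the planned test between the diets was not run, and precision by depth is unknown.

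CPM is 2 to the power of the deposited log2 value, and was divided by the listed length in kilobases. Gene models came from GENCODE vM1 on NCBIM37, where 39 of the 48 members have a coding transcript within 10% of the listed length. Promoters came from RefSeq on GRCm38.p6, and the percentile and motif searches were tested on simulated data. Proteins were not analysed here. By the rule for named genes, values are given for the 10 highest and 10 lowest members per kilobase, the longest and shortest mRNAs, those nearest the median and those sharing a number. Members named for low coding share, a role or a facing gene were chosen after their values were seen. The members, gene lists and motifs were chosen with earlier results of these data known. Calculations ran in Python 3.11.15 with pandas 2.3.3, scipy 1.17.1 and numpy 2.4.6, and figures were drawn with matplotlib 3.10.9.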

Additional observations from a re-analysis of the deposited data

How the results depend on the processing

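The median level of the members was 24.9 CPM per kilobase with mitoribosomal proteins under other symbols added, 25.4 without Mrps36 and 43.8 per kilobase of coding sequence. The higher median of the large subunit kept its sign in the 4 alternatives that changed the genes or the scale, from 0.38 to 0.53 on the log2 scale. A minimum of 5 CPM removed no member and so tested nothing. The difference between members with and without a bacterial counterpart stayed within 0.08. The median percentile was 54.5 within 25% of the length, 62.1 without the cytosolic ribosomal protein and respiratory chain genes, and 80.8 against all other listed genes per kilobase, which also include longer mRNAs. The cytosolic ribosomal protein mRNAs were 10.3 times the members by the mean of log2 values and 8.83 times by CPM without length, and the respiratory chain mRNAs 5.60 and 4.69 times. In the window from 150 bases before the start, TATAAA was in 2.38% of the members' promoters and the ETS core in 38.1% (23.6 to 54.4, against 17.3% of other listed genes), while the interval of the YY1 letters then included the share of the other listed genes (14.3%, 5.43 to 28.5, against 5.98%). Use of coding length, CPM without length for the groups, and omission of Mrps36 were chosen after seeing the data. Mice could not be left out in turn, because the results hold 1 mean for all of them. The alternative with coding length from RefSeq proteins was not run and was replaced by GENCODE. No paired analysis was possible, because the diets were given to different mice.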

Other observations

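The first bases of the annotated transcripts were compared with those of the other ribosome, as a description. Cytosolic ribosomal protein mRNAs are known to begin with a cytosine followed by a run of pyrimidines, through which their translation responds to growth signals. At the annotated RefSeq start (GRCm38.p6), a C followed by pyrimidines over 5 bases in all was found in 12 of 55 cytosolic ribosomal protein genes with a promoter entry, or 21.8% (95% exact binomial interval 11.8 to 35.0), and in 0 of the 42 mitochondrial ribosomal protein genes (0 to 8.41). It was found in 3 of 50 respiratory chain genes, or 6.00% (1.25 to 16.5), and in 2.99% of the 5184 other listed genes. The interval of the mitochondrial ribosomal protein genes includes 2.99%, so their 0 of 42 cannot be told apart from the other listed genes. Since the search found the tract in only 12 of the 55 cytosolic genes, a missing match does not show that an mRNA lacks it. Annotated starts can be some bases off, and this was looked for after the levels had been seen.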
